A study of Mus musculus with 6 samples.

Results

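The dual-specificity MAPK phosphatases examined here were 8 named genes, Dusp1, Dusp2, Dusp4, Dusp5, Dusp6, Dusp7, Dusp10 and Dusp16. They were chosen by symbol, and all 8 were found among the 14490 genes with mRNA-seq values. The RNA came from NK cells sorted from the spleens of C57BL/6 mice, with 3 samples from WT mice, whose Mettl3 gene is floxed on both alleles (Mettl3fl/fl), and 3 from cKO mice (Ncr1Cre-Mettl3fl/fl), which carry the same floxed alleles and in which Cre is expressed from the Ncr1 locus. The WT samples therefore carried the floxed gene but no Cre, so that an effect of Cre or of the Ncr1Cre allele itself cannot be told apart from the loss of Mettl3. The animals were 6 to 10 weeks old. Mettl3 encodes the catalytic subunit of the m6A RNA methyltransferase, and the comparison of cKO with WT asks how transcript levels differ when NK cells lack it. The labels do not say whether the samples of a genotype came from separate animals, and the p-values measure the spread between these samples, which may be partly technical.

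MAP kinases are switched on by phosphorylation of a threonine and a tyrosine in their activation loop, and dual-specificity MAPK phosphatases switch them off by removing both phosphates. The family falls into nuclear enzymes whose genes are rapidly induced by the kinases they restrain (Dusp1, Dusp2, Dusp4, Dusp5), cytoplasmic enzymes that prefer ERK (Dusp6, Dusp7), and enzymes that prefer the stress-activated kinases JNK and p38 (Dusp10, Dusp16). In lymphocytes they are known as negative feedback on signalling from antigen and cytokine receptors, and Dusp2 was first described as a gene of activated T cells.

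Promoters of 4 members are shown because they hold a match to one of the regulatory motifs searched, of the kind through which MAPK-responsive transcription factors act on early genes. The searched windows were the 250 bases before the transcript start in RefSeq (GRCm38.p6), from which all distances below are counted. They are printed 5′ to 3′ on the gene's strand with the matches in capitals, those of Dusp1 and Dusp5 only as far as the start of the main GENCODE transcript, which lies inside the RefSeq window. The motifs were the cAMP response element (CRE, TGACGTCA), the core TGACG of that element, the AP-1 site TGAGTCA, the E-box CACGTG and the CArG box of serum response factor, each on both strands. A full CRE contains 2 overlapping cores, 1 on each strand.
Dusp1 promoter, chr17:26508520-26508722, minus strand: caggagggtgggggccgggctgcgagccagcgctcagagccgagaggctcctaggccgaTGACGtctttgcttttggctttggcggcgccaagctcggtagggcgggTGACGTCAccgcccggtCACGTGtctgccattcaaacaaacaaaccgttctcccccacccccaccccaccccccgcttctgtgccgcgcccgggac
Dusp2 promoter, chr2:127335909-127336158, plus strand: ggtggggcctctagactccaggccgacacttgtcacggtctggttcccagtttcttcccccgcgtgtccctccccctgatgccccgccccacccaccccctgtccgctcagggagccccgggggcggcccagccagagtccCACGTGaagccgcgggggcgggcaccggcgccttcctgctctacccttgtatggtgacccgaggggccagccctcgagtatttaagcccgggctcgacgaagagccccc
Dusp5 promoter, chr19:53528895-53529108, plus strand: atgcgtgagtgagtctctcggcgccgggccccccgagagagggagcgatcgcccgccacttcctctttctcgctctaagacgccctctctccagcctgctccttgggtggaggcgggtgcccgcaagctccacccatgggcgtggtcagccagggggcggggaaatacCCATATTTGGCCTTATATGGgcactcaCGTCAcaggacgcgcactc
Dusp16 promoter, chr6:134792629-134792878, minus strand: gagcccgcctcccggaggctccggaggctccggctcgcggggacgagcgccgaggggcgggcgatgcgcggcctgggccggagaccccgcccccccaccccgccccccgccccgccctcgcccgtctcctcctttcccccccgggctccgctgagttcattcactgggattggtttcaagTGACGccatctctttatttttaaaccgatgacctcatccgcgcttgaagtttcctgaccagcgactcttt
The Dusp1 window held a full CRE, whose first base lies 143 bases before the start, a further CRE core at 191 bases and an E-box at 126 bases. Dusp2 held an E-box at 109 bases. Dusp5 held a pair of adjoining CArG boxes, at 82 and 72 bases, and a CRE core at 55 bases, and Dusp16 a CRE core at 70 bases. No match was found in the windows of Dusp6, Dusp7 and Dusp10, and the table of promoters used here was matched by 7 of the 8 members, all but Dusp4. Among 27025 promoter windows of this length, 1.62% held a full CRE, 17.9% a CRE core, 4.43% an AP-1 site, 6.05% an E-box and 1.40% a CArG box. Among the 9908 of these windows that belong to listed genes, the shares were 2.87%, 27.8%, 2.82%, 8.19% and 1.04%, respectively. These matches describe the letters of the windows and were not tested against binding or against the changes below.

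The values are normalized counts, a gene's reads divided by a size factor of its sample, and between 55965515 and 71464042 reads per sample fell on the listed genes. Values of single samples are given in the order of replicates 1, 2 and 3. Mettl3, the targeted gene, had 1303, 1258 and 1192 normalized counts in the WT replicates against 297, 299 and 405 in the cKO replicates. Every cKO sample lay below every WT sample. Genes that define NK cells were abundant, summing to between 707091 and 739747 normalized counts over 10 markers in WT and between 632950 and 669585 in cKO, with 1 of the 10 higher and 7 lower in cKO. Markers of other cell types summed to less. The 8 B-cell markers summed to between 1367 and 1384 in WT and between 1861 and 1925 in cKO, with 6 of the 8 higher, and Cd22 was the most abundant of them. The 7 T-cell markers analysed summed to between 1840 and 2056 in WT and between 1438 and 1645 in cKO, with 2 lower and Cd3d the most abundant. The 5 erythroid markers, led by Hbb-bs, summed to between 811 and 870 in WT and between 684 and 832 in cKO, with 0 called. The 6 ILC1 markers, led by Il7r, summed to between 1440 and 1543 in WT and between 1845 and 1883 in cKO, with 1 higher. The 7 myeloid markers summed to between 59362 and 60475 in WT and between 59282 and 61316 in cKO, with 4 higher and 1 lower, and most of that sum was Itgam, which NK cells also express. Csf1r came next, with means of 2975 in WT and 3189 in cKO, and was not called. Lyz2, the 1 called lower, had 2186 and 1663. The 4 called higher were Mpeg1 (1439 and 1598), Adgre1 (997 and 1184), Cd68 (956 and 1098) and Cd14 (121 and 166). In normalized counts, Csf1r thus lay above Dusp4, Dusp7 and Dusp16 in both genotypes. The defining markers Cd8b1, S100a8 and S100a9 were not analysed here, and the part of any such cells in the changes below was not tested.

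Dusp1, Dusp2, Dusp4 and Dusp7 were higher in METTL3-deficient NK cells, Dusp5, Dusp10 and Dusp16 were lower, and Dusp6 did not pass the test. Dusp1 gained 44.1% and Dusp16 lost the most, changing by −31.4%. Of the 8 members, 7 had an adjusted p under 0.05 (limma on log2(value + 1), two-sided, Benjamini-Hochberg adjustment over all 14490 genes). The same test called 36.6% of all genes, 17.8% higher and 18.8% lower in cKO. Since all 8 members lay above the median gene in level, the closer background is that of the 6909 genes with a mean at least as high as the lowest member, of which 52.6% were called. The genotypes did not overlap in 7 of the 8 members and in 45.7% of all genes, a share that was not taken over the closer background. For each of these 7 members the exact permutation test gave p = 0.1, two-sided, the smallest that 3 samples against 3 allow. The study's own rule, an unadjusted p under 0.05 together with a log2 fold change beyond 1 in size, was met by 0 of the 8 members and by 1.75% of all genes, and the 95% confidence interval of every member lay within those limits. With a limit of 1.5-fold, 0 members met it as well, whereas at an unadjusted p under 0.05 with no fold limit 7 did. The shares of all genes at these limits are not given here. An unadjusted p calls at least as many genes as the adjusted p, that is 36.6% of all genes or more. The median log2 fold change of the members was 0.12 and that of all genes 0.0014, and in absolute size the medians were 0.32 and 0.17.

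**Figure D1:**
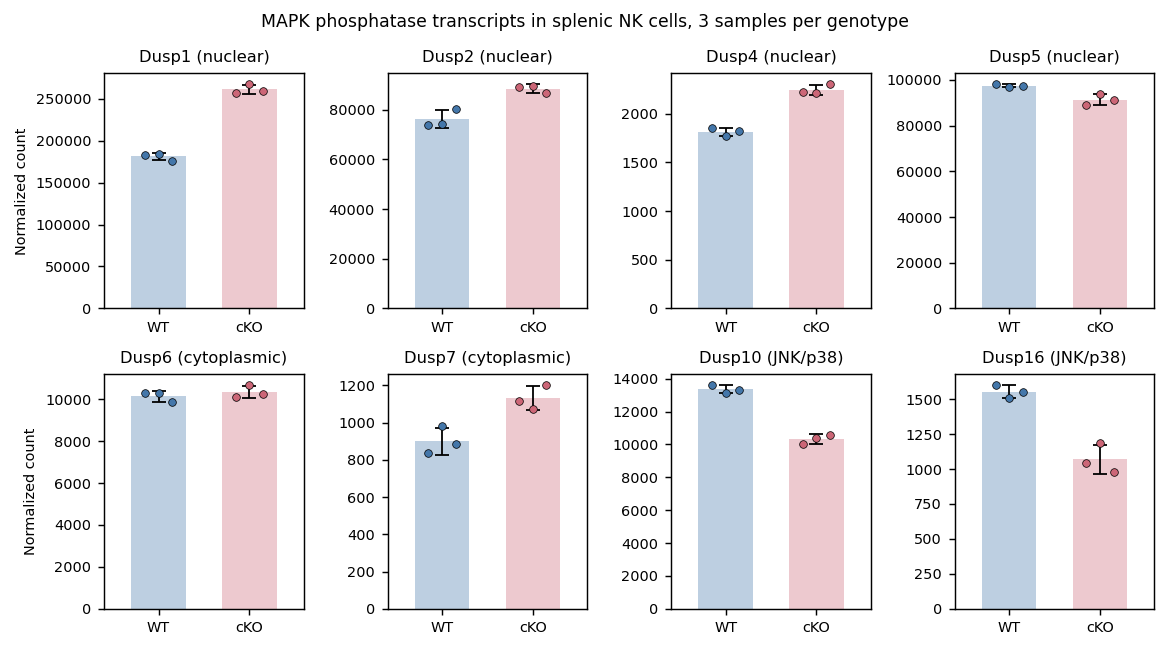
Normalized counts (vertical axes, each starting at 0) of the 8 members in WT and cKO. Points are samples, bars the mean of 3 samples and error bars the SD. The genotypes are apart in every panel but that of Dusp6, where the WT samples sit between 9844 and 10312 and the cKO samples between 10111 and 10690.

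Dusp1, the prototype of the nuclear class, acts on p38, JNK and ERK. It had 182987, 184327 and 176045 normalized counts in the WT replicates against 256236, 266901 and 259584 in the cKO replicates. Every cKO sample was above every WT sample, and the gap between the genotypes was far wider than the spread within either. The means were 181120 ± 4445 (SD, n = 3) and 260907 ± 5455 (SD, n = 3), a log2 fold change of 0.53 (standard error, SE, 0.0308, 95% confidence interval 0.46 to 0.59, limma adjusted p = 3.06e-13). By mean normalized count it ranked 19 among all listed genes. Its main transcript lies on the minus strand of GRCm38 at chr17:26505590-26508519 and has 4 exons. Longer annotated Dusp1 transcripts share exonic sequence with Ergic1 on the opposite strand. The main transcript does not, and how reads of the shared stretch were counted is not given in the sources used here.

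Dusp2, a nuclear phosphatase of ERK and p38 found mainly in blood cells, had 73848, 74407 and 80315 normalized counts in the WT replicates against 89264, 89591 and 86507 in the cKO replicates. The groups were apart, with WT sample 3 the highest of its group and nearest to cKO. The means were 76190 ± 3583 (SD, n = 3) and 88454 ± 1694 (SD, n = 3), a log2 fold change of 0.22 (SE 0.0324, 95% confidence interval 0.15 to 0.28, limma adjusted p = 6.55e-06). The gene lies on the plus strand at chr2:127336159-127338376.

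Dusp4, the close relative of Dusp1 that acts on ERK and JNK, was present at a much lower level. It had 1854, 1766 and 1817 normalized counts in the WT replicates against 2222, 2210 and 2299 in the cKO replicates. Again no cKO sample reached down to WT. The means of 1812 ± 44.5 (SD, n = 3) and 2244 ± 48.4 (SD, n = 3) gave a log2 fold change of 0.31 (SE 0.0493, 95% confidence interval 0.21 to 0.41, limma adjusted p = 1.59e-05). The gene lies on the plus strand at chr8:34807297-34819894.

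Dusp5, the nuclear phosphatase specific for ERK, went the other way from the rest of its class. It had 97988, 96909 and 97513 normalized counts in the WT replicates against 88946, 93881 and 91323 in the cKO replicates. All cKO samples were below the WT samples, which differed little among themselves. The means were 97470 ± 541 (SD, n = 3) and 91383 ± 2468 (SD, n = 3), a change of −6.27% and a log2 fold change of −0.09 (SE 0.0294, 95% confidence interval −0.15 to −0.03, limma adjusted p = 0.0137). This call did not hold throughout. Scaled to equal totals, the log2 fold change was −0.04 (adjusted p = 0.196), with limma-voom −0.04 (adjusted p = 0.126), and without cKO replicate 1 it was −0.07 (adjusted p = 0.134). Dusp5 lies on the plus strand at chr19:53529109-53542431, and an antisense gene, AC137853.2, overlaps exons of its main transcript. The strand setting of the counting is not given in the sources used here, so whether reads of that antisense RNA were counted for Dusp5 is not known.

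Dusp6 and Dusp7 are cytoplasmic and act on ERK, Dusp6 as its best known feedback inhibitor. Dusp6 had 10312, 10291 and 9844 normalized counts in the WT replicates against 10111, 10690 and 10228 in the cKO replicates. The groups overlapped. The means were 10149 ± 264 (SD, n = 3) and 10343 ± 306 (SD, n = 3), a log2 fold change of 0.03 (SE 0.0343, limma adjusted p = 0.581, exact permutation p = 0.6). Its 95% confidence interval, −0.04 to 0.10, leaves room for a difference of that size only. Dusp6 lies on the plus strand at chr10:99263231-99267488. Dusp7 had 837, 980 and 887 normalized counts in the WT replicates against 1118, 1075 and 1204 in the cKO replicates, the lowest mean of the members over the 6 samples. No cKO sample fell within the WT range. The means were 902 ± 72.7 (SD, n = 3) and 1133 ± 65.8 (SD, n = 3), a log2 fold change of 0.33 (SE 0.0714, 95% confidence interval 0.18 to 0.48, limma adjusted p = 0.000576). The relative spread of Dusp7 among WT samples was 8.06%. Counting alone would give 3.12% at its mean depth over all 6 samples, which had 824 to 1317 reads each. Dusp7 lies on the plus strand at chr9:106368632-106375724.

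Dusp10 and Dusp16, which prefer JNK and p38, were both lower in cKO. Dusp10 had 13634, 13120 and 13339 normalized counts in the WT replicates against 10035, 10381 and 10588 in the cKO replicates. The groups were far apart. The means were 13364 ± 258 (SD, n = 3) and 10335 ± 279 (SD, n = 3), a log2 fold change of −0.37 (SE 0.0330, 95% confidence interval −0.44 to −0.30, limma adjusted p = 1.19e-09), a change of −22.7%. Its main transcript lies on the plus strand at chr1:184034381-184075636. Dusp16 had 1603, 1509 and 1550 normalized counts in the WT replicates against 1046, 1183 and 976 in the cKO replicates. The highest cKO sample was well below the lowest WT sample, although the cKO samples varied by 9.87% against 3.04% in WT. The means were 1554 ± 47.2 (SD, n = 3) and 1068 ± 106 (SD, n = 3), a log2 fold change of −0.54 (SE 0.0664, 95% confidence interval −0.68 to −0.41, limma adjusted p = 2.81e-07). Its main transcript, the longest of the members at 5104 bases, lies on the minus strand at chr6:134715473-134792625.

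**Figure D2:**
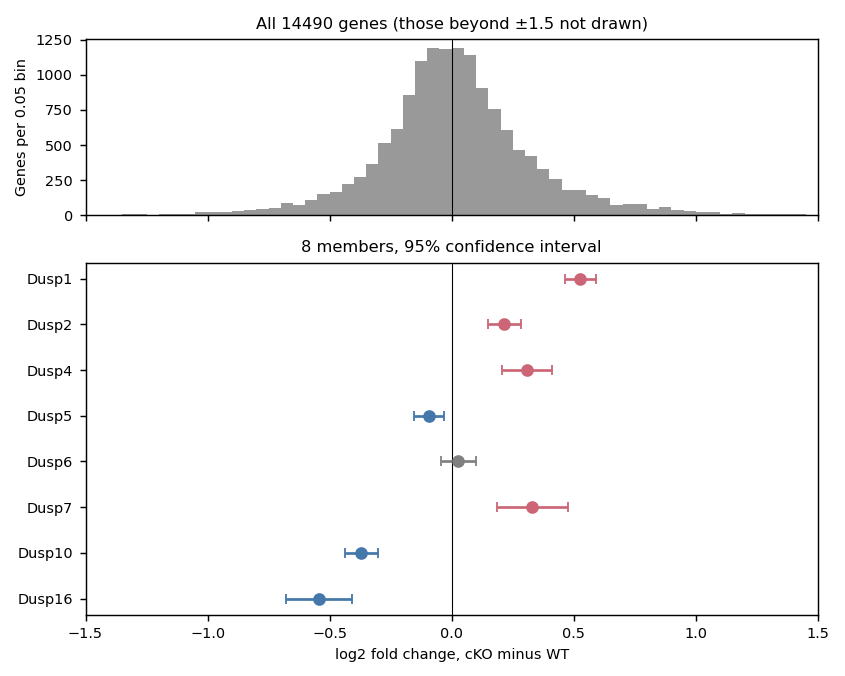
Upper panel, the number of genes in each bin of log2 fold change (cKO minus WT) over all 14490 genes. Lower panel, the log2 fold change of each member with its 95% confidence interval, red where it was higher, blue where it was lower and grey where the adjusted p was not under 0.05. Dusp1 at 0.53 and Dusp16 at −0.54 mark the ends of the members' range, and the interval of Dusp6 spans 0.

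Levels were compared between members as normalized counts per kilobase of all annotated exons of a gene. In WT, Dusp1 was highest at 54702 ± 1343 (SD, n = 3), followed by Dusp5 at 39414 ± 219 and Dusp2 at 38038 ± 1789, which did not differ beyond their spread. A wide gap separated these inducible nuclear genes from Dusp10 at 4393 ± 84.7 and Dusp6 at 3240 ± 84.4. Dusp4 at 661 ± 16.2, Dusp7 at 269 ± 21.7 and Dusp16 at 199 ± 6.06 came last. The order shifted at several places in cKO. Dusp2, at 44161 ± 846, was there above Dusp5, at 36952 ± 998, with no overlap between the samples of the 2 genes. Dusp10, at 3397 ± 91.8, came down to Dusp6, at 3302 ± 97.7, and the 2 no longer differed beyond their spread. Dusp16, at 137 ± 13.5, fell further behind Dusp7, at 337 ± 19.6.

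Some of these orders depend on the length used. Per kilobase of the longest transcript, Dusp2 in WT had 47118 ± 2216 and lay above Dusp5, which had 39414 ± 219. Dusp16 in WT had 304 ± 9.26 and Dusp7 281 ± 22.6, and the samples of the 2 genes overlapped. In cKO, the order of Dusp2 above Dusp5 and of Dusp7 above Dusp16 was the same with either length. Shares of the summed level of the 8 members were taken per kilobase of all annotated exons only. Dusp1 made up 38.8% ± 1.05 (SD, n = 3) in WT and 46.9% ± 0.202 in cKO. Dusp5 went from 28.0% ± 0.174 to 22.0% ± 0.263, while Dusp2 had 27.0% ± 1.20 and 26.3% ± 0.515, which overlapped. The 2 JNK and p38 enzymes together went from 3.26% ± 0.0666 to 2.11% ± 0.0515. These shares shift with the length used, and per longest transcript Dusp2 would have a larger WT share than Dusp5. They also add up to the whole, so the rise of Dusp1 by itself lowers the other shares. In level, Dusp5 changed by −6.27% and Dusp2 by 16.2%.

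**Figure D3:**
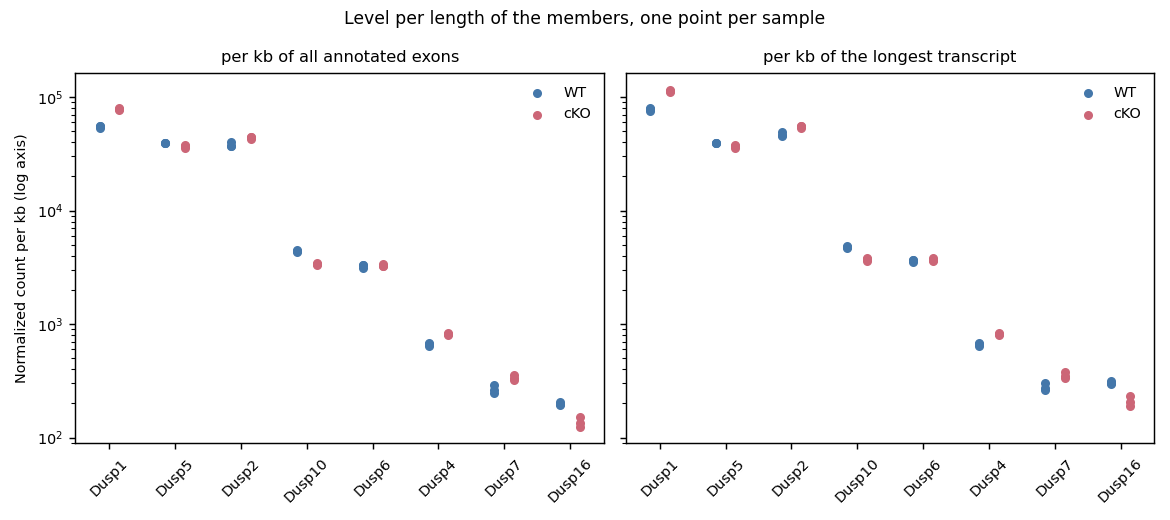
Normalized counts per kilobase (log axis) of each member in the 3 WT (blue) and 3 cKO (red) samples, with all annotated exons as the length on the left and the longest transcript on the right. Dusp1, Dusp5 and Dusp2 stand about an order of magnitude above Dusp10 and Dusp6, and Dusp16 lies below Dusp7 in WT on the left but overlaps it on the right.

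Ratios of 2 members within a sample do not depend on how samples are scaled, and a few were computed after the values above were seen, without a test. Dusp1 had 1.87, 1.90 and 1.81 times the normalized count of Dusp5 in the WT replicates and 2.88, 2.84 and 2.84 times in the cKO replicates. This ratio was 53.7% higher on average in cKO. Every cKO sample was higher in Dusp1 and lower in Dusp5 than every WT sample, so the genotypes could not overlap in it. The same holds for the ratios of Dusp1 to Dusp10, of Dusp1 to Dusp16 and of Dusp4 to Dusp5. The ratio of Dusp1 to Dusp10 was 13.4, 14.0 and 13.2 in WT and 25.5, 25.7 and 24.5 in cKO. That of Dusp1 to Dusp16 was between 114 and 122 in WT and between 226 and 266 in cKO. Dusp4 relative to Dusp5 was 32.1% higher on average. Dusp7 relative to Dusp6 was 23.4% higher, without overlap of the genotypes. Dusp10 relative to Dusp16 was between 8.51 and 8.70 in WT and between 8.77 and 10.9 in cKO, the smallest shift of the ratios computed. Since these are ratios of counts and not of levels per length, they describe the difference between genotypes and not which transcript was more abundant.

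The transcripts of the members differ in features that the choice of members did not use. The AU-rich pentamer ATTTA, the core of elements that mark early-gene transcripts for rapid decay, occurred 4 times in the 3′ UTR of Dusp1 and 4 times in that of Dusp2, or 5.80 and 6.89 per kilobase of 3′ UTR. The median of listed protein-coding genes was 1.24 per kilobase. Dusp10 had 3 (2.70 per kilobase), Dusp16 had 3 (1.24), Dusp4 had 2 (1.80), Dusp5 had 1 (0.902), Dusp6 had 1 (0.841) and Dusp7 had 0. The letters GGACT, one of the sequences that the METTL3 complex can methylate, occurred 8 times in the main transcript of Dusp6, 6 times in Dusp4, 5 in Dusp16, 4 in Dusp1, 4 in Dusp7, 3 in Dusp10, 2 in Dusp5 and 0 in Dusp2. Per kilobase of transcript, the highest was Dusp6 with 2.86, and the median of listed protein-coding genes was 1.05. A count of letters is not a methylated site, methylation was not measured in these samples, and neither count was tested against the changes.

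The rest of the MAPK pathway was described through 8 lists, of whose 83 genes 75 were analysed. Of these, 38 (50.7%) passed the test, 14 higher and 24 lower in cKO, beside 36.6% of all genes and 52.6% of genes at least as abundant as the lowest member. Their median log2 fold change was −0.0098. Scaling to equal totals gave 22 higher and 19 lower, and over all genes the share of calls that were higher went from 48.5% to 63.4%. The split of the members was 4 higher and 2 lower under that scaling, with Dusp5 no longer called.

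Among 6 other phosphatases that act on MAP kinases, 1 was higher and 2 lower, with a median log2 fold change of −0.0047. Dusp8, the further dual-specificity phosphatase of JNK and p38, had 4046, 4001 and 4219 normalized counts in the WT replicates against 2042, 2200 and 1976 in the cKO replicates. It fell from 4088 ± 115 to 2073 ± 115 (SD, n = 3), a log2 fold change of −0.98 (SE 0.0471, limma adjusted p = 6.30e-15), which is larger than that of any of the 8 members. Ptpn7, the haematopoietic tyrosine phosphatase of ERK and p38, fell by 0.34 on the log2 scale (adjusted p = 1.77e-09), and Ppm1d, a nuclear serine and threonine phosphatase that acts on p38, rose by 0.29 (adjusted p = 1.59e-05). Of 10 atypical dual-specificity phosphatases, small enzymes without a MAP kinase docking domain, 1 was higher and 3 were lower. Dusp18 fell by 0.66 (adjusted p = 2.80e-11) and Dusp3, which can act on ERK and JNK, by 0.50 (adjusted p = 1.08e-05). Dusp19 had a log2 fold change of 0.35 (adjusted p = 0.0262), with an adjusted p of 0.102 without WT replicate 1 and 0.107 without cKO replicate 1.

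Of the 9 MAP kinases analysed, 2 were higher and 5 lower, and the median log2 fold change was −0.16. Mapk7, the gene of ERK5, had 1562, 1616 and 1498 normalized counts in WT and 2268, 2301 and 2321 in cKO, a log2 fold change of 0.56 (adjusted p = 1.75e-09). Mapk6, an atypical ERK, fell by 0.26 (adjusted p = 9.19e-08) and Mapk3, the gene of ERK1, by 0.21 (adjusted p = 0.000123). Mapk14, the gene of p38 alpha, had a log2 fold change of 0.10 (adjusted p = 0.0265), and this call was lost with the correction for GC content and length (adjusted p = 0.180) and without WT replicate 2 (0.168), cKO replicate 1 (0.0841) or cKO replicate 2 (0.0603). Of the 7 MAPK kinases, which phosphorylate the MAP kinases, 0 were higher and 2 lower. Map2k3, an activator of p38, fell by 0.15 (adjusted p = 0.000651). Map2k2, an activator of ERK, had a log2 fold change of −0.13 (adjusted p = 0.00994), and its adjusted p was 0.0960 with equal totals, 0.0949 with limma-voom, 0.0958 without WT replicate 2 and 0.0715 without cKO replicate 3. Of 11 MAPK kinase kinases, 1 was higher and 3 lower. Map3k5, the stress-responsive kinase ASK1, rose by 0.20 (adjusted p = 0.000726), and Map3k8 and Map3k11 fell by 0.18 and 0.16 (adjusted p = 0.000491 and 0.000279).

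Upstream of the kinases, 3 of 12 genes of RAS activation were higher and 4 lower. Hras, which encodes a RAS GTPase, rose by 0.37 (adjusted p = 7.18e-06). Gab2, a docking adaptor of cytokine receptors, fell by 0.57 (adjusted p = 1.00e-09) while its relative Gab3 rose by 0.27 (adjusted p = 3.69e-05). Of 10 feedback inhibitors of RAS and ERK analysed, 3 were higher and 3 lower. Spry2 rose by 0.15 (adjusted p = 0.000382) and Dok1 by 0.18 (adjusted p = 0.00322), and Spred1 fell by 0.31 (adjusted p = 0.00288) and Dok2 by 0.22 (adjusted p = 3.99e-06). Of 10 kinases activated by MAP kinases, 3 were higher and 2 lower. Mknk1 rose by 0.19 and Rps6ka1 by 0.14 (adjusted p = 0.000904 and 0.00240), and Mknk2 fell by 0.21 and Mapkapk2 by 0.15 (adjusted p = 1.26e-06 and 0.000939).

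The nuclear members are early-response genes, and early genes can also be induced while tissue is taken apart. Of 24 other immediate-early and dissociation-related genes, 9 were higher and 8 lower, with a median log2 fold change of 0.05. The same test called 36.6% of all genes and 52.6% of genes at least as abundant as the lowest member. After scaling to equal totals, 13 of the 24 were higher and 4 lower. With limma-voom 14 were higher and 5 lower, and without cKO replicate 1 the counts were 9 and 5. Fos, a subunit of AP-1, had 99528, 94171 and 94294 normalized counts in WT and 167487, 175321 and 166863 in cKO, a log2 fold change of 0.82 (SE 0.0314, limma adjusted p = 8.01e-17). Ier5, another early gene, rose by 0.33 (adjusted p = 6.96e-10). Nr4a3, an early nuclear receptor, fell by 0.41 (adjusted p = 2.28e-11) and Btg2, an early antiproliferative gene, by 0.28 (adjusted p = 4.66e-08). The heat-shock genes of the list were singled out after their values were seen. Hspa1a rose by 0.87 (adjusted p = 5.83e-09), Hspa1b by 0.80 (adjusted p = 7.47e-10) and Dnajb1 by 0.22 (adjusted p = 4.68e-06), while Hsp90aa1 had a log2 fold change of 0.06 (adjusted p = 0.161). Hspa1a and Hspa1b are near-identical copies, and reads may be split between them. The part of cell handling in the differences of the members was not tested. In bulk samples, fewer cells expressing a gene and less RNA of it per cell cannot be told apart.

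**Figure D4:**
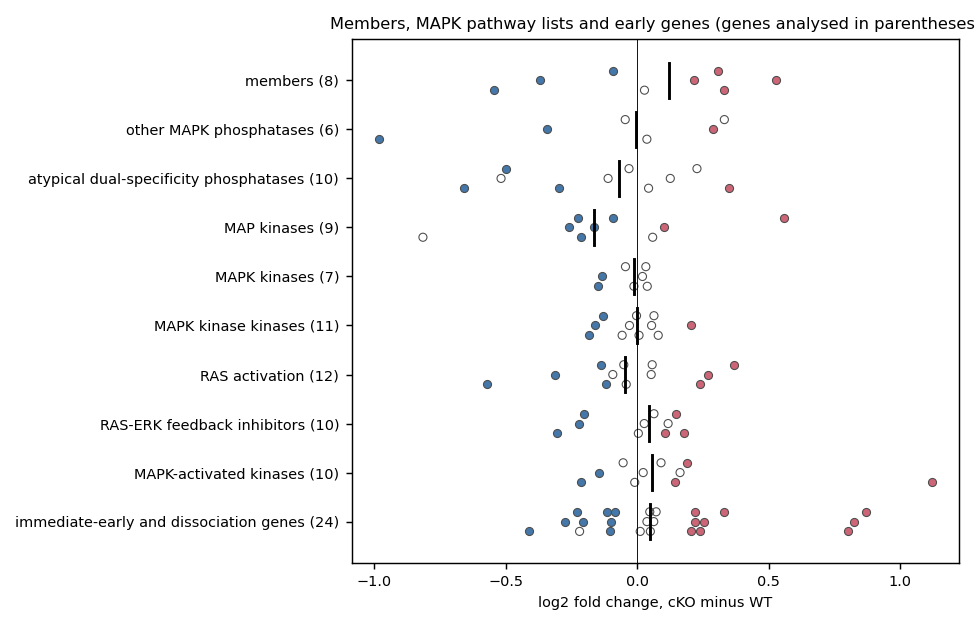
log2 fold change (cKO minus WT) of the 8 members and of the genes of the 8 MAPK pathway lists and of the early-gene list, with the number of genes analysed in parentheses. Each point is a gene, red where higher and blue where lower with an adjusted p under 0.05 and open otherwise, and the black line is the median. Dusp8 is the leftmost point at −0.98. The point at 1.12 is Rps6ka2, which had between 9.52 and 45.4 normalized counts and was singled out after its value was seen.

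The genes most like a member in their pattern over the 6 samples were sought among 11753 genes with a mean of at least 1 CPM, counts scaled to a common total, by Pearson r of log2(value + 1). For Dusp16 they were Mgst2 (r = 0.998), G3bp1 (r = 0.997) and Gabarap (r = 0.996), whose own log2 fold changes were −0.15, −0.13 and −0.28. For Dusp1 they were B3gat3, Pik3r5 and Ppp1r10, each with r = 0.999 and with log2 fold changes of 0.28, 0.50 and 0.60. All 6 samples entered each r, and the difference between genotypes is part of it. No test was made.

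**Figure D5:**
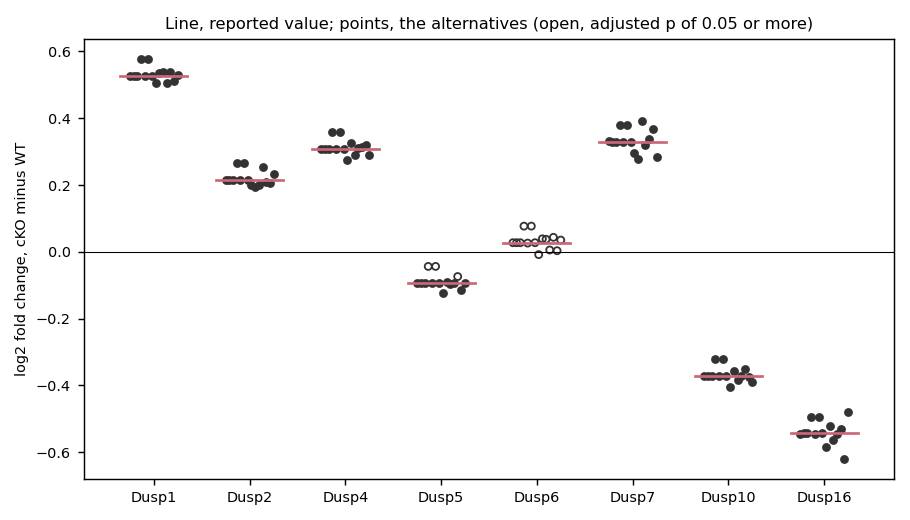
log2 fold change (cKO minus WT) of each member as reported (red line) and under the 14 alternative settings (points, open where the adjusted p was not under 0.05). The points of 6 called members stay filled throughout, and Dusp5 has 3 open points at −0.04, −0.04 and −0.07.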

How the data were processed

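The data are mRNA-seq of NK cells sorted by FACS from the spleen, 3 samples of each genotype, grouped by their labels. Paired-end reads had been aligned by the authors with Hisat2 to GRCm38, summarized per gene by featureCounts and scaled by DESeq2. The submitters' processing notes name HISAT2 2.0.5 and 2.0, featureCounts 1.5.0-p3 and DESeq2 1.16.1. The values the authors deposited are a signal, gene counts divided by the sample's size factor. Within 0.01 reads, 100% of the values in each sample were whole multiples of 1 step, from which reads per sample were read off. These totals cover listed genes only, and the stated counting error covers counting only. Replicates of a genotype differed by more than counting noise (chi-square per degree of freedom 5.50 to 8.01), which does not show whether they came from separate animals. The table also holds the authors' own comparison, which was not used.

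Values were taken as log2(value + 1) and a filter, 1 or more in 3 or more samples, removed no gene. The fold changes are on that scale, which understates those of low genes. limma 3.58.1 in R 4.3.3 fitted cKO minus WT with a trended variance. Tests were two-sided, with Benjamini-Hochberg adjustment across all 14490 genes and a threshold of 0.05. Single members were also compared by exact permutation, two-sided, with 20 ways to assign the 6 samples (SciPy). The reported limma fit was tested on simulated counts with known changes, and the TMM step on proportional columns. No other step was tested in this way. Positions, lengths and 3′ UTRs are from GENCODE M21, which 97.1% of the names matched, and promoters from RefSeq.

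The members and the gene lists were chosen with earlier results of these data known. Named genes are the 8 members, Mettl3, in each MAPK list the 2 genes with the lowest adjusted p in each direction (adjusted p under 0.05, mean of at least 1 CPM, no overlap of the genotypes), the 3 genes most like Dusp16 and Dusp1 in pattern, and the most abundant markers of other cell types. Not every gene under this rule is reported here, and the called myeloid markers were named beside it. Alternative settings covered the filter (none, or 1 CPM in 3 samples), a pseudocount of 0.1, the scaling (equal totals, TMM), limma-voom, a block for the replicate number, leaving out single samples, a spline correction for GC content and length, other limits in the study's rule and the longest transcript as the length.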

Additional observations from a re-analysis of the deposited data

How the results depend on the processing

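Each member's fold change was recomputed under 14 alternatives, 6 that leave out 1 sample and 8 others. These are not independent. The fit with no filter equals the reported one, since the filter removed no gene. The CPM filter and the replicate block leave the fold changes unchanged and can alter only the p-values. limma-voom scales by sample totals, as equal totals does. Of the 7 called members, 6 kept direction and call in all 14. Dusp5 kept its direction but had an adjusted p of 0.05 or more with equal totals (log2 fold change −0.0437, adjusted p = 0.196) and limma-voom (−0.0437, adjusted p = 0.126), and with 1 sample left out it ranged from −0.113 to −0.0740 (adjusted p up to 0.134, without cKO replicate 1). Equal totals and limma-voom moved the median of all genes to 0.05 on the log2 scale. Dusp6 passed the test in none of the 14 (adjusted p 0.0572 to 0.958), and its log2 fold change was −0.0083 with the GC and length correction. Of the 99 genes of the pathway and early-gene lists together, 23 were higher in the reported fit, 35 with equal totals and 36 with limma-voom. Equal totals moved the log2 fold changes up by nearly the same amount, for example Dusp1 from 0.5267 to 0.5763 and Dusp5 from −0.0934 to −0.0437. Why the totals differ was not tested. Of 32 other genes under the naming rule, 29 kept their call throughout and 0 reversed. Per kilobase of the longest transcript, WT levels were 78305 for Dusp1, 47118 for Dusp2, 3630 for Dusp6, 4787 for Dusp10 and 304 for Dusp16, since that length is shorter than all exons together.

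Samples with the same number in the 2 genotypes were not shown to be paired. The correlations of their deviations from the group means were −0.0239, 0.116 and 0.0447 for numbers 1, 2 and 3, and not every sample correlated best with its own number. With the replicate number as a block, 7 members were called, as without it, and 5543 genes in place of 5307. The planned tests on counts with edgeR and DESeq2 were not run here. Counting error, taken at the mean reads over the 6 samples, was at most 3.12% for any member, and is larger in samples with fewer reads. With 3 samples a genotype, the spread of a single gene is itself poorly known.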
